A study of Homo sapiens with 24 samples.

Results

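HMGA1, HMGA2, LIN28B, IGF2BP1, IGF2BP2 and IGF2BP3 are chromatin and RNA-binding genes that are active in the embryo and again in many tumors. Their expression was followed through butyrate treatment, with and without induction of dominant negative Tcf4 (DN-Tcf4), in HCT-116 cells, a human colorectal cancer cell line. The members are the 9 array probes, out of 34127, that carry 1 of these 6 gene names, out of 27263. The members were chosen by the lower HMGA2 signal with butyrate, so the HMGA2 differences between cells with and without butyrate, and every member's values in butyrate alone against control, are given as a description with no test.

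All arrays came from 1 stably transfected clone that carries a Tet repressor and a DN-Tcf4 gene under a Tet-inducible promoter. Control cells (Ctl) received neither agent, and NaB cells received 5 mM sodium butyrate. Doxy cells received 4 μg/ml doxycycline, and DoxyNaB cells received both agents. The methods place doxycycline before the butyrate step, which lasted 17.5 hr, and do not say how long before. Each of 6 experiments gave 1 array for each of the 4 treatments, and the study calls the experiments biological replicates. The paired comparisons ask how butyrate changes expression with Wnt signaling intact (NaB/Ctl) and with doxycycline added to induce DN-Tcf4 (DoxyNaB/Doxy). By the study's western blot, DN-Tcf4 was minimal with doxycycline alone and high with both agents. DoxyNaB/Doxy therefore holds the butyrate response and the rise of DN-Tcf4 together, and it cannot tell them apart.

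HMGA1 and HMGA2 are small architectural proteins whose AT hooks bind the minor groove of AT-rich DNA. LIN28B blocks the maturation of let-7 microRNAs, and let-7 represses HMGA2 mRNA through sites in its 3′ UTR. The 3 IGF2BP proteins (IMPs) bind mRNAs such as those of IGF2 and MYC and affect their stability, location and translation, and they are called oncofetal because most adult tissues make little of IGF2BP1 and IGF2BP3. Butyrate, made by bacteria from fiber in the colon, inhibits histone deacetylases.

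Mature let-7 sequences, as given by RefSeq with GRCh38.p14, show the seed that joins these genes to the microRNA. Bases 2 to 8, in capitals, were the same in 8 of 8 let-7 5p sequences of that table. The arrays do not measure mature microRNAs.
hsa-let-7a-5p: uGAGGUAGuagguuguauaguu
hsa-let-7d-5p: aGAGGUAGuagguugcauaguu
hsa-let-7g-5p: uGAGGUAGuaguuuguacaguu

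Of the 9 member probes, 1 holds the reverse complement of this seed, CTACCTC, searched on the strand of the mRNA. It is the HMGA1 probe, and 0.34% of all probes hold these letters. The stretch lies at chr6:34321588-34321616 (NCBI36, plus strand), with the seed match in capitals. A match of 7 letters is a description of the sequence and not a site shown to act.
HMGA1 seed match: ctgttcacaaaCTACCTCtggacagttgt

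HMGA2 and IGF2BP2 have more than 1 probe each, and these report different parts of the transcripts. HMGA2 has 3 probes on chromosome 12, at chr12:64505368-64505427 in the coding sequence near the 5′ end (5′ end probe), at chr12:64595507-64595566 assigned by the files to the short transcript variant (short-variant probe), and at chr12:64646056-64646115, assigned to the long variant (long-variant probe), all on the plus strand of NCBI36. The files assign the 5′ end probe to the same transcript as the short-variant probe, and exon positions were not checked against an NCBI36 annotation. The last 2 lie 90.1 kb and 140.7 kb downstream of the first. IGF2BP2 has a probe at chr3:186844741-186844800 (3′ end probe) and another whose 60 bases cover 1461 bases of the genome, chr3:186846097-186847557, so that it crosses an intron (junction probe), both on the minus strand. The 5′ end probe of HMGA2 and the junction probe of IGF2BP2 are shown because the probes of a gene are compared below.
HMGA2 5′ end probe: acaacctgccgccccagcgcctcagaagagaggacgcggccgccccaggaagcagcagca
IGF2BP2 junction probe: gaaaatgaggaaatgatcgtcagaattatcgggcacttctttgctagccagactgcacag

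Signals are given as levels, on a log2 scale whose 0 is the 75th percentile of all spots of that array other than controls. A level compares 1 probe between arrays, not 1 probe with another. Of the 9 member probes, 5 were well above background, by the scanner software's own test, on each of the 24 arrays. The fit took every probe that passed this on the 6 arrays of 1 treatment or more, among them 7 member probes of 4 genes (HMGA1, HMGA2, IGF2BP2 and IGF2BP3), within 18983 probes of 15162 genes. Each gene was represented by its tested probe of highest mean level, which was the long-variant probe for HMGA2 and the 3′ end probe for IGF2BP2.

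Over the whole series, the share of spots well above background ran from 52.7% to 88.1%, with 78.4% to 88.1% in experiments 2 to 4 and 52.7% to 62.6% in the others. Negative controls had a net signal of 49.9 to 130.5 on 22 arrays, while NaB in experiment 3 had 160.8 and DoxyNaB in experiment 2 had 311.0. Levels of the induced gene were checked with the 3 probes of TCF7L2, the gene that encodes Tcf4. On 2 of the 3, every DoxyNaB array lay above every NaB array, by 4.46 and 2.96 on the log2 scale on average (limma adjusted p = 1.77e-06 and 3.65e-05). Doxy/Ctl differed by 0.30 and -0.17 there (limma adjusted p = 0.861 and 0.921). The remaining probe differed by -1.25 in DoxyNaB/NaB (limma adjusted p = 0.00568). In butyrate, the TCF7L2 signal was thus higher with doxycycline on 2 of the 3 probes and lower on 1, and no difference passed the test without butyrate. Of 9 colon epithelial markers, 7 were well above background on all 24 arrays, and VIL1 and CDH17 on 5 and 2 arrays. Of 9 markers of leukocytes, endothelium, and fibroblasts or muscle, CD79A, COL1A1 and DES were well above background on all 24 arrays, COL3A1 on 0, and 5 on some. The summed level of these 9 was -0.66 to 0.25 on the arrays without butyrate and 0.55 to 1.70 on those with it. That of the 9 colon epithelial markers was 7.72 to 8.23 without butyrate and 7.99 to 8.97 with it, ranges that overlap. The part of these shifts in the results below was not tested.

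The HMGA2 transcript was the member that differed most with butyrate. On the long-variant probe, the lowest, median and highest levels were 2.13, 2.61 and 2.74 on the 6 Ctl arrays, and -2.37, -1.86 and -1.17 on the 6 NaB arrays. On the Doxy arrays they were 2.37, 2.82 and 2.97, and on the DoxyNaB arrays -2.48, -2.26 and -1.20. The butyrate arrays formed a group of their own in both settings, with a gap of 3.31 between the groups in NaB/Ctl and of 3.58 in DoxyNaB/Doxy.

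Within an experiment, the long-variant level in NaB minus that in Ctl was at or below -3.81 on the log2 scale in 6 of 6 experiments, with a mean of -4.35 ± 0.39 (SD, n = 6), or a 20.4-fold lower signal. In DoxyNaB/Doxy the mean difference was -4.82 ± 0.52 (SD, n = 6), or 28.3-fold. With normexp background correction the differences were smaller, -3.75 and -3.96. These are the values that led to the choice of the set. They placed HMGA2 at position 3 among the 18983 probes ordered from the lowest difference in NaB/Ctl, and at position 4 in DoxyNaB/Doxy. Both differences kept their direction in each scan, at -4.10 and -4.48 in experiments 2 to 4 and -4.72 and -5.32 in experiments 5 and 6. In experiment 1 the arrays without and with butyrate lay on different slides and scans, so that slide and butyrate cannot be told apart there, and the differences were -4.38 and -4.85. In RNA from whole cultures, fewer cells of a kind and less RNA per cell cannot be told apart, here and in all results below.

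**Figure D1:**
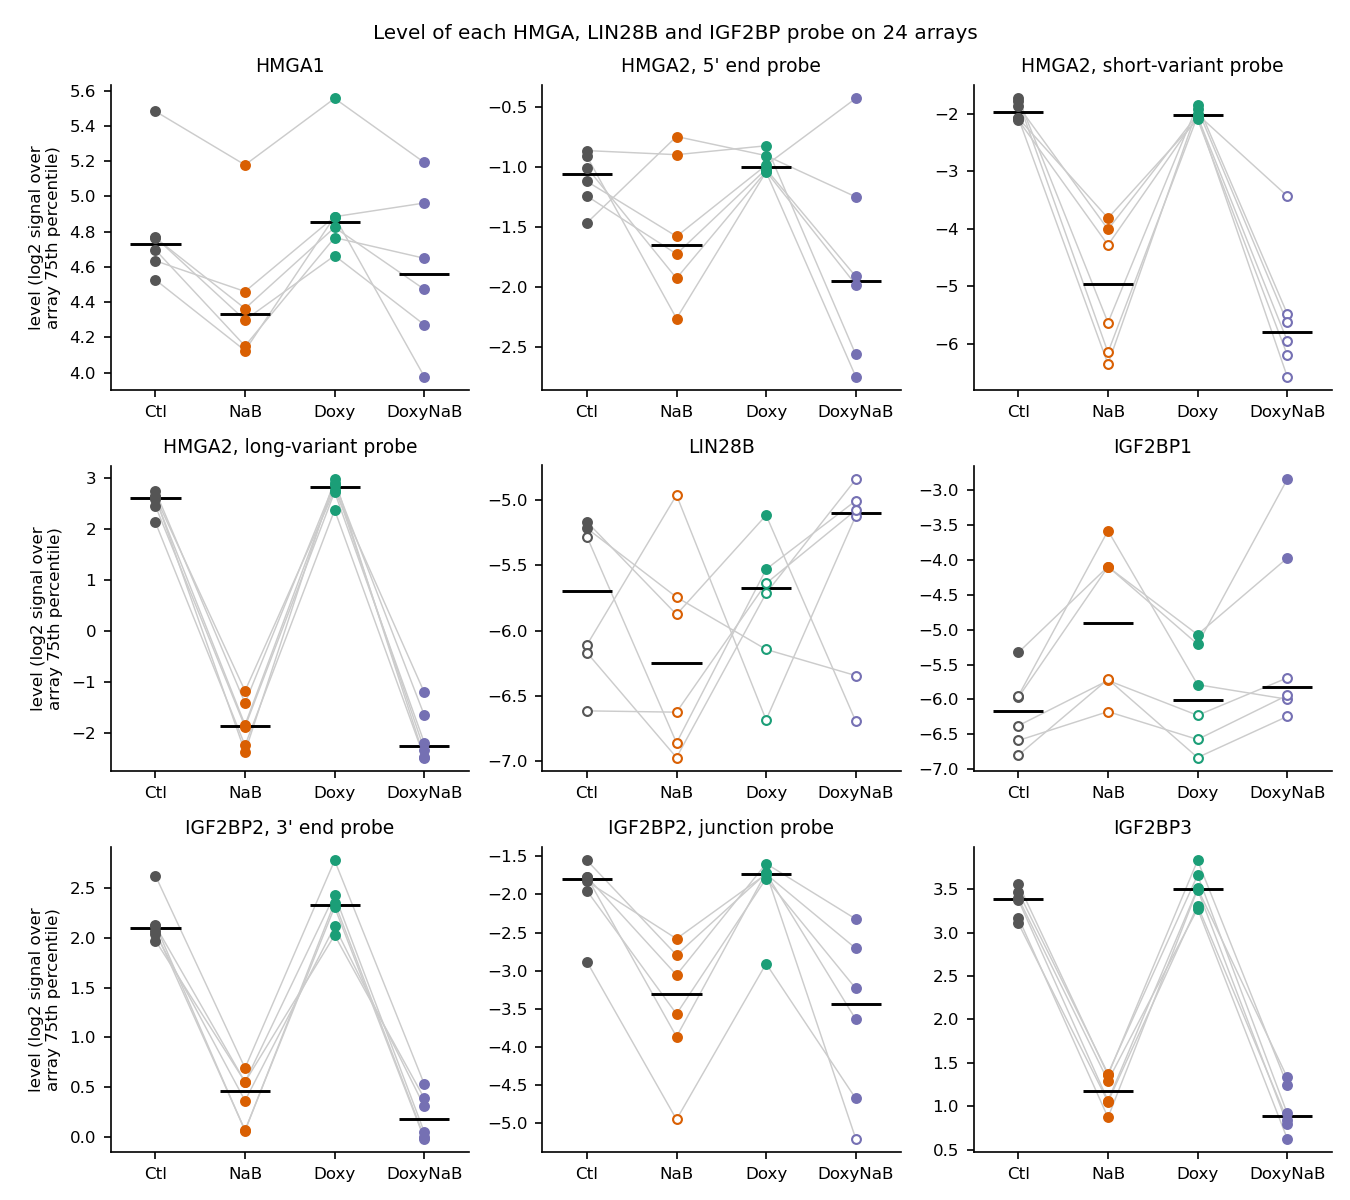
Level of each of the 9 member probes (log2 of the processed signal over the 75th percentile of the array) on the 24 arrays, by treatment. Each point is 1 array, gray lines join the 4 arrays of an experiment, black bars are medians of 6 arrays, and open points were not well above background; each panel has its own axis, and on the long-variant probe of HMGA2 all butyrate arrays lie at or below -1.17 and all others at or above 2.13.

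The 3 HMGA2 probes did not give the same size of difference. On the short-variant probe, the level was -2.11 to -1.74 on the Ctl arrays and -2.10 to -1.84 on the Doxy arrays. With butyrate it was -6.36 to -3.82 in NaB, where 2 of 6 arrays were well above background, and -6.57 to -3.43 in DoxyNaB, where 0 of 6 were. This probe was thus near or under background wherever butyrate was present.

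The short-variant probe passed the background test on all 6 arrays in Ctl and Doxy only, so it entered the fit through the treatments where it is high. Where it was dimmer on a DoxyNaB array than the lowest signal of any probe well above background, it was set at that signal. The DoxyNaB signal was then 6.46-fold lower than the Doxy signal. The measured difference was -3.10 ± 1.21 (SD, n = 6) in NaB/Ctl and -3.55 ± 1.09 (SD, n = 6) in DoxyNaB/Doxy. With normexp background correction the DoxyNaB/Doxy difference was -0.80, a smaller fall, so 6.46-fold is not a lower limit under every setting.

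The 5′ end probe differed least. Its levels were -1.47 to -0.86 on the Ctl arrays and -2.26 to -0.75 on the NaB arrays, and the 2 groups overlapped. They were -1.04 to -0.82 on the Doxy arrays and -2.75 to -0.43 on the DoxyNaB arrays, with overlap again. The mean difference was -0.42 ± 0.72 (SD, n = 6) in NaB/Ctl and -0.85 ± 0.87 (SD, n = 6) in DoxyNaB/Doxy, lower in 5 of 6 experiments in each.

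Within the same experiments, the DoxyNaB/Doxy difference of the short-variant probe minus that of the 5′ end probe was -2.70 ± 0.62 (SD, n = 6). For the long-variant probe minus the 5′ end probe it was -3.98 ± 0.48, and for the long-variant probe minus the short-variant probe -1.27 ± 0.71. Each was below 0 in 6 of 6 experiments, and all are given with no test. The 5′ end probe, shown above, has 70% G and C, against 38.3% in both of the others, and all 24 of its signals were well above background. The part of base composition in the gap between probes was not tested. The highest DoxyNaB level of the 5′ end probe, -0.43, was on the array with the highest negative controls. Without the DoxyNaB array of experiment 2 and the NaB array of experiment 3, its DoxyNaB/Doxy difference was -1.12, and that of the long-variant probe was -4.94.

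**Figure D2:**
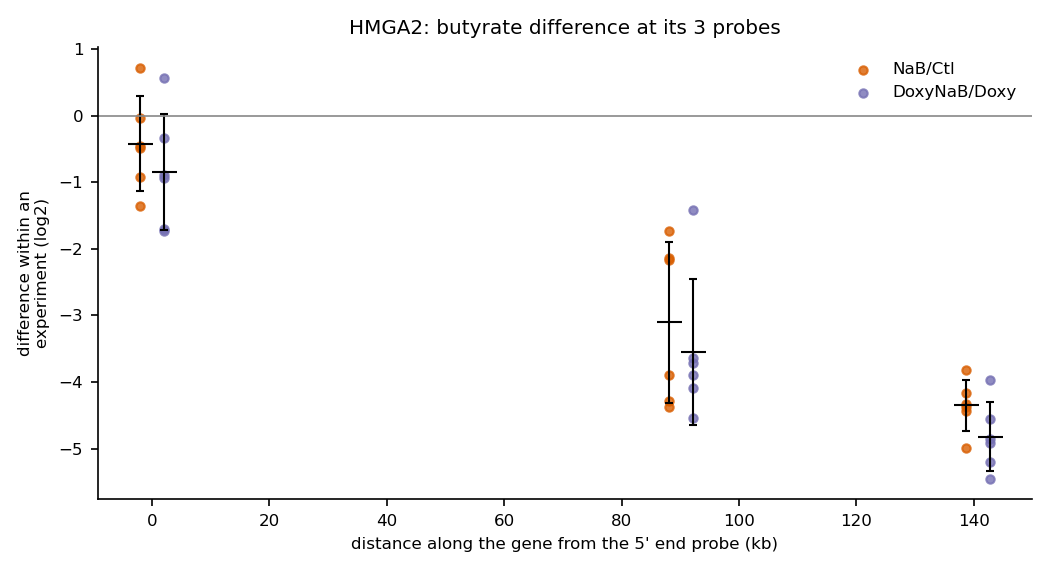
Difference in level within an experiment (log2, y axis) at the 3 HMGA2 probes, placed by their distance in kb from the 5′ end probe (x axis), for NaB/Ctl and DoxyNaB/Doxy. Points are the 6 experiments, set 2 kb to each side of the probe for legibility, and bars are the mean with its SD; the means run from -0.42 and -0.85 at 0 kb to -4.35 and -4.82 at 140.7 kb.

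HMGA1, the second HMGA gene, differed by less than 2-fold on the scale used here. Its levels were 4.53, 4.73 and 5.48 (lowest, median and highest) in Ctl and 4.12, 4.33 and 5.18 in NaB. They were 4.66, 4.85 and 5.56 in Doxy and 3.98, 4.56 and 5.19 in DoxyNaB. The treatments overlapped, and the arrays of experiment 1 were the highest in every treatment.

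The HMGA1 difference was -0.38 ± 0.13 (SD, n = 6) in NaB/Ctl, lower in 6 of 6 experiments. In DoxyNaB/Doxy it was -0.34 ± 0.33 (SD, n = 6), a 1.27-fold lower signal in 5 of 6 experiments (limma adjusted p = 0.00497, 95% interval -0.55 to -0.13), which is under the fold of 2 that a call needed. Its adjusted p lay between 0.0009 and 0.475 over 20 other settings, and was 0.165 without the replicate block. When arrays were scaled to their medians, which moved the median of all probes to -0.58 in NaB/Ctl and -0.46 in DoxyNaB/Doxy, the HMGA1 differences were -1.13 and -0.90.

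The RNA-binding members IGF2BP2 and IGF2BP3 were both lower with butyrate. The IGF2BP3 levels, on a probe at chr7:23317294-23317353 (NCBI36, minus strand), were 3.11, 3.39 and 3.56 in Ctl and 0.87, 1.18 and 1.38 in NaB. They were 3.28, 3.50 and 3.83 in Doxy and 0.63, 0.88 and 1.33 in DoxyNaB. No butyrate array reached the lowest array without butyrate, and the gap was 1.73 in NaB/Ctl and 1.94 in DoxyNaB/Doxy.

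IGF2BP3 differed by -2.18 ± 0.11 (SD, n = 6) in NaB/Ctl, a 4.53-fold lower signal with the smallest spread of any member probe. In DoxyNaB/Doxy it fell by 2.55 on the log2 scale (SE 0.092, limma adjusted p = 5.43e-14), a 5.87-fold lower signal in 6 of 6 experiments. Leaving out each experiment in turn gave -2.63 to -2.52.

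IGF2BP2, on its 3′ end probe, had levels of 1.97, 2.10 and 2.62 in Ctl and 0.06, 0.46 and 0.69 in NaB. They were 2.02, 2.33 and 2.78 in Doxy and -0.02, 0.18 and 0.53 in DoxyNaB. Again the groups did not overlap. The difference was -1.78 ± 0.26 (SD, n = 6) in NaB/Ctl, and in DoxyNaB/Doxy the level fell by 2.12 (SE 0.100, limma adjusted p = 1.72e-12), a 4.36-fold lower signal in 6 of 6 experiments.

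The junction probe of IGF2BP2, with its sequence shown above, lay nearer background. Its levels were -2.88 to -1.55 in Ctl, -4.95 to -2.58 in NaB, -2.91 to -1.60 in Doxy and -5.20 to -2.32 in DoxyNaB, and 5 of 6 arrays were well above background in each butyrate treatment. The groups overlapped, and the Ctl and Doxy arrays of experiment 1 were the lowest of their treatments. The difference was -1.51 ± 0.52 (SD, n = 6) in NaB/Ctl, and the level fell by 1.72 in DoxyNaB/Doxy (SE 0.280, limma adjusted p = 2.28e-05). This probe was well above background on all 6 arrays in Ctl and Doxy only, so it entered the test through the treatments where it is high. With normexp background correction the difference was -0.56 (limma adjusted p = 0.0273), and under the methods' t-test the adjusted p was 0.0141. The junction probe and the 3′ end probe of IGF2BP2 differed in their change by 0.41 ± 0.80 (SD, n = 6), which is within the spread between experiments.

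LIN28B and IGF2BP1 were too dim to be tested. LIN28B was well above background on 4 of 24 arrays (2 Ctl and 2 Doxy), with levels from -6.97 to -4.84 and treatments that overlapped throughout. IGF2BP1, printed in 10 spots, was well above background on 10 of 24 arrays (2 Ctl, 3 NaB, 3 Doxy and 2 DoxyNaB), with levels from -6.83 to -2.84. All of these arrays, 4 for LIN28B and 10 for IGF2BP1, belonged to experiments 2 to 4, the scan with the larger share of spots above background. In no treatment did either gene pass the background test on 6 of 6 arrays.

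**Figure D3:**
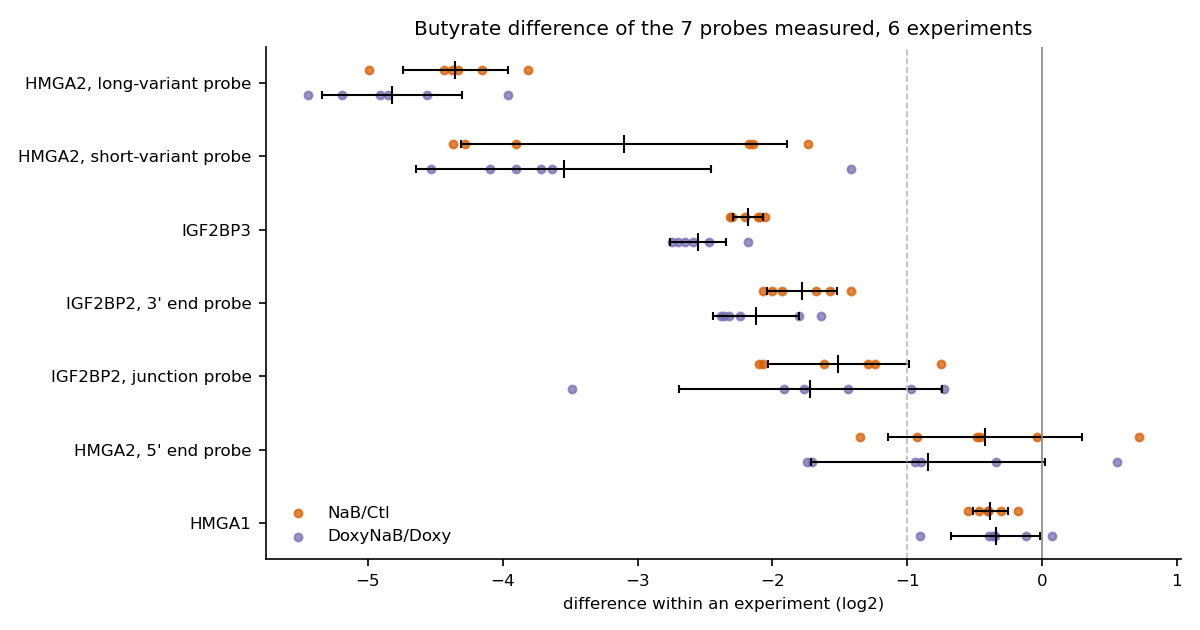
Difference in level within an experiment (log2, x axis) of the 7 member probes that were tested, for NaB/Ctl and DoxyNaB/Doxy. Points are the 6 experiments, black bars the mean with its SD and the dashed line a 2-fold lower signal; 4 probes (short-variant and long-variant HMGA2, IGF2BP2 3′ end, IGF2BP3) have all their points left of -1, and the HMGA1 means lie at -0.38 and -0.34.

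Leaving out HMGA2, which chose the set, 2 of the 3 tested members (IGF2BP2 and IGF2BP3) passed the call in DoxyNaB/Doxy (fold over 2 and limma adjusted p under 0.01), both as lower. Over all genes tested, 31.2% passed it, 12.5% as lower. As a description, every DoxyNaB array lay below every Doxy array on the short-variant and long-variant probes of HMGA2, the 3′ end probe of IGF2BP2 and the IGF2BP3 probe, and the same held for NaB and Ctl. Over all probes this was so of 19.9% in DoxyNaB/Doxy and 18.9% in NaB/Ctl, and nothing is read from the count because it includes HMGA2 and the comparison that chose the set. The median difference of all probes was 0.17 in NaB/Ctl and 0.10 in DoxyNaB/Doxy, so the members' differences stand slightly further from the middle of the array than from 0. Scaling each array to its median moved these medians to -0.58 and -0.46, and quantile normalization to -0.09 and -0.11, and the long-variant HMGA2, IGF2BP2 3′ end and IGF2BP3 differences stayed below 0 under each.

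Without butyrate (Doxy/Ctl), 0 of the 4 tested genes passed an adjusted p of 0.01 in limma, beside 0.554% of all genes, and 0 had an unadjusted p under 0.05. This depended on which arrays set the spread: with only the Doxy and Ctl arrays fitted, 3 of 4 (HMGA2, IGF2BP2 and IGF2BP3) had an unadjusted p under 0.05. No share over all genes was taken at an unadjusted p under 0.05, here or below, so nothing is read from these counts. Under the methods' t-test, 2 of 4 (HMGA2 and IGF2BP2) had an unadjusted p under 0.01, the threshold of the study, beside 7.55% of all genes, and 0 of 4 after Benjamini-Hochberg adjustment. The HMGA2 long-variant level differed by 0.24 ± 0.08 (SD, n = 6) and was higher in 6 of 6 experiments (95% interval -0.07 to 0.55, limma adjusted p = 0.560). IGF2BP2 differed by 0.17 (95% interval -0.04 to 0.39, adjusted p = 0.517), IGF2BP3 by 0.17 (-0.03 to 0.36, adjusted p = 0.491) and HMGA1 by 0.12 (-0.09 to 0.33, adjusted p = 0.712).

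In the presence of butyrate (DoxyNaB/NaB), 0 of 4 genes passed, beside 2.72% of all genes, and IGF2BP3 alone had an unadjusted p under 0.05. With only the arrays compared, and under the methods' t-test, HMGA2 alone did. IGF2BP3 differed by -0.21 (95% interval -0.40 to -0.01, limma adjusted p = 0.279). HMGA2 differed by -0.23 ± 0.16 (SD, n = 6) and was lower in 6 of 6 experiments (95% interval -0.55 to 0.08, adjusted p = 0.517). IGF2BP2 differed by -0.17 (-0.38 to 0.04, adjusted p = 0.461) and HMGA1 by 0.16 (-0.05 to 0.37, adjusted p = 0.511). On these probes, 1 per gene, the intervals leave room for differences of up to 0.55 on the log2 scale. Their butyrate differences were over 1.7 in size for HMGA2, IGF2BP2 and IGF2BP3. The other probes had wider intervals, down to -1.36 (HMGA2 short-variant), -0.90 (HMGA2 5′ end) and -0.75 (IGF2BP2 junction). On the HMGA2 5′ end probe the butyrate differences were smaller, -0.42 in NaB/Ctl and -0.85 in DoxyNaB/Doxy, and the junction probe had -1.51 in NaB/Ctl.

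**Figure D4:**
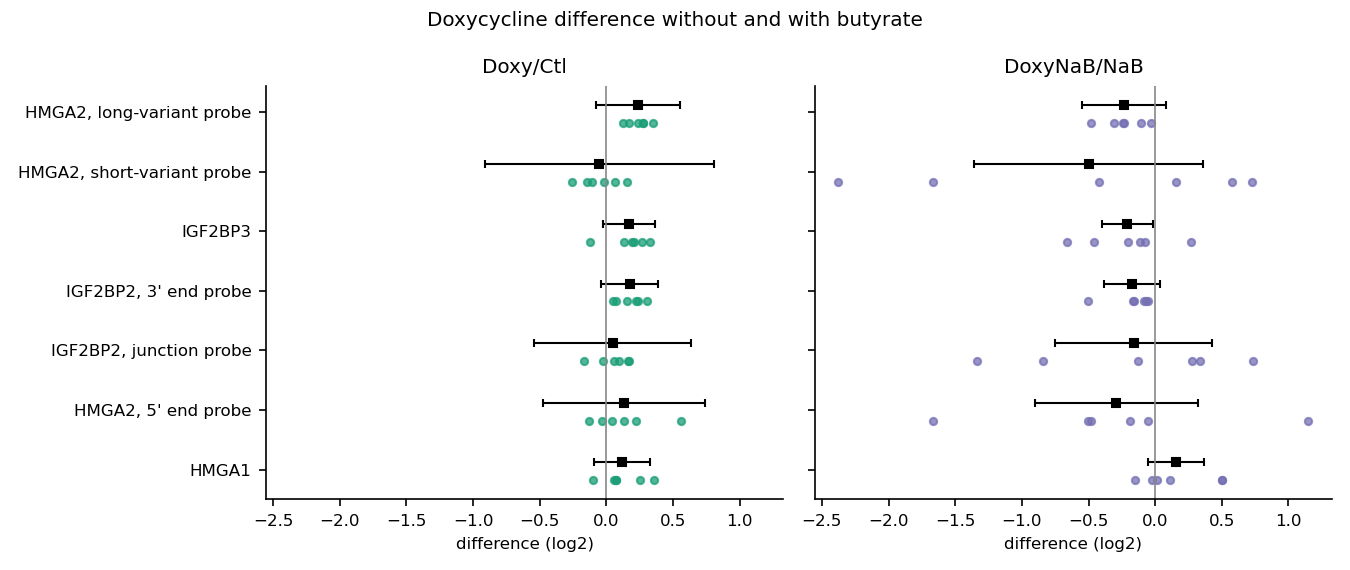
Doxycycline difference in level (log2, x axis) of the 7 tested member probes, without butyrate (Doxy/Ctl) and with it (DoxyNaB/NaB). Points are the 6 experiments, squares the estimate of the limma fit, and bars its 95% interval; 6 of the 7 intervals hold 0 in DoxyNaB/NaB and 7 of 7 in Doxy/Ctl.

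Whether the butyrate difference itself depended on doxycycline was tested as the interaction, (NaB/Ctl) minus (DoxyNaB/Doxy), a positive value meaning a lower DoxyNaB/Doxy than NaB/Ctl difference. It was 0.38 for IGF2BP3 (95% interval 0.10 to 0.65, limma adjusted p = 0.193), with 5 of 6 experiments above 0. It was 0.35 for IGF2BP2 (95% interval 0.05 to 0.64, limma adjusted p = 0.310), with 6 of 6 above 0, and -0.04 for HMGA1 (-0.34 to 0.26, adjusted p = 0.945). Thus 0 of these 3 genes passed, beside 1.36% of all genes. Of them, 2 had an unadjusted p under 0.05, a threshold at which no share over all genes was taken. For HMGA2 the value, given with no test, was 0.47 ± 0.20 (SD, n = 6) and was above 0 in 6 of 6 experiments. Under the methods' t-test 0 members had an unadjusted p under 0.01 in DoxyNaB/NaB or, HMGA2 left out, in the interaction, beside 5.73% and 4.7% of all genes.

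Promoters are shown for IGF2BP2 and IGF2BP3, because both fell with butyrate. The 250 bases before the transcription start were taken from RefSeq (GRCh38.p14), which gave 7 promoters for 4 of the 6 genes. E-boxes (CACGTG) are in capitals in the IGF2BP3 promoter, chr7:23470492-23470741 on the minus strand, which holds 2, and 6.34% of all 35097 promoters hold at least 1. GC boxes (GGGCGG on either strand) are in capitals in the IGF2BP2 promoter, chr3:185825043-185825292 on the minus strand, which holds 7, some of them overlapping. The other IGF2BP2 promoter of the table holds 0 and the HMGA1 promoters hold 5 and 0, and 42.6% of all promoters hold at least 1. The Tcf/Lef motif CTTTGAT, searched on both strands, was in 0 of the 7 member promoters and in 2.26% of all promoters. Both HMGA1 promoters held 0 E-boxes. Of the 2 LIN28B promoters, 1 held 1 E-box and 0 GC boxes, and the other held 0 E-boxes and 2 GC boxes.
IGF2BP3 promoter: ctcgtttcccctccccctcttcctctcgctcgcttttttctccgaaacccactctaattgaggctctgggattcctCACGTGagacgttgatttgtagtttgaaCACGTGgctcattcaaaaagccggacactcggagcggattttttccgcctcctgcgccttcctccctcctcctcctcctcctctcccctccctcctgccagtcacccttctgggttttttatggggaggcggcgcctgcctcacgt
IGF2BP2 promoter: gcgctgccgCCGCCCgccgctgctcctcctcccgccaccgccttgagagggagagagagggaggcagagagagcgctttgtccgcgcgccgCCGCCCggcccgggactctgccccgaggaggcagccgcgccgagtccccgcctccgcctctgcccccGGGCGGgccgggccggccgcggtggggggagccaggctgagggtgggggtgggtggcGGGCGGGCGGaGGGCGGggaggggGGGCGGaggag

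The genes around the members were read from lists of the let-7 pathway, described let-7 targets, other HMG proteins, mRNAs described as bound by IGF2BP proteins, and genes described as regulated by HMGA proteins. Each count from the report's fit stands beside the same share over all genes tested, which was 32.4% called in NaB/Ctl (21% higher and 11.5% lower) and 31.2% in DoxyNaB/Doxy (18.7% higher and 12.5% lower). Counts of list genes under other settings, given below, have no such share beside them, so nothing is read from them. The median difference of all genes was 0.17 and 0.11.

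In the let-7 pathway, 14 of 17 genes were tested. In DoxyNaB/Doxy, 5 fell and 1 rose, with a median of -0.48, and in NaB/Ctl 6 fell and 0 rose, with a median of -0.63. Both counts of falls include AGO4, which was well above background on 6 Ctl, 1 NaB, 6 Doxy and 1 DoxyNaB arrays. It entered the test through the treatments where it is high, and its differences rest partly on signals near background. AGO2, the Argonaute that cleaves targets, fell by 2.13 ± 0.17 (SD, n = 6, limma adjusted p = 1.21e-14), and MIR100HG, the host of a let-7 cluster, fell by 2.60 ± 0.20 (adjusted p = 2.01e-14). DICER1, which cuts microRNA precursors, fell by 1.04 ± 0.28 (adjusted p = 4.25e-08). The gene that rose was TUT7, a terminal uridylyltransferase that acts with LIN28 proteins, by 1.02 ± 0.25 (adjusted p = 1.31e-08). LIN28A, the paralog of LIN28B, was well above background on 6 of 24 arrays, 4 of them DoxyNaB, and was not tested. With normexp background correction the list gave 2 calls in each comparison. With arrays scaled to their medians it gave 10 in NaB/Ctl, where that scaling moved the median of all probes to -0.58.

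Among described let-7 targets outside the member set, 16 of 20 were tested, and in DoxyNaB/Doxy 3 rose and 5 fell, with a median of 0.07. THBS1, a secreted matrix protein, rose by 3.73 ± 0.52 (SD, n = 6, limma adjusted p = 1.64e-13). ARID3B, a DNA-binding protein, rose by 2.15 ± 0.23, against 1.17 ± 0.15 in NaB/Ctl (limma adjusted p of the difference 0.000206). CDC25A, a phosphatase of the cell cycle, fell by 2.48 ± 0.24 (adjusted p = 6.49e-13). 

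Over the 5 lists, the interaction passed for MYC and ARID3B only. MYC fell by 2.45 ± 0.15 (SD, n = 6) in DoxyNaB/Doxy (limma adjusted p = 1.16e-15), while the NaB/Ctl difference was -0.85 ± 0.13, under the fold of 2. The difference between these was 1.60 (limma adjusted p = 2.14e-08), and the DoxyNaB/NaB level fell by 1.52 (adjusted p = 7.95e-11). MYC is a described target of let-7 and of Tcf factors, and its mRNA is bound by IGF2BP proteins.

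Of the mRNAs described as bound by IGF2BP proteins, 10 of 10 were tested, and in DoxyNaB/Doxy 3 rose and 2 fell, with a median of 0.38. CD44, a hyaluronan receptor and the lowest of them, fell by 2.86 ± 0.19 (SD, n = 6, limma adjusted p = 3.9e-15). ABCB1, a drug efflux pump, rose by 2.78 ± 0.54 and GLI1, a Hedgehog transcription factor, by 2.13 ± 0.96. These passed the background test on 5 and 4 of 6 Doxy arrays, entered the test through butyrate treatments, where they are high, and have differences that rest partly on signals near background. With normexp background correction, or with probes well above background on all 24 arrays, 3 genes of this list were called. IGF2, the growth factor for whose mRNA the family is named, rose by 1.16 ± 0.26 (adjusted p = 8.67e-10). H19 differed by -0.04 ± 0.29 (adjusted p = 0.768).

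Of the other HMG proteins, 9 of 10 were tested, and 2 fell and 0 rose in both butyrate comparisons, with a median of -0.34 in DoxyNaB/Doxy. HMGB2, a DNA-bending protein of dividing cells, fell by 2.44 ± 0.23 (limma adjusted p = 3.52e-12), lower in all 5 experiments measured, because 1 outlier spot was left out. HMGN4, a nucleosome-binding protein, fell by 1.51 ± 0.14 (SD, n = 6, adjusted p = 1.72e-12). HMGB3 differed by -0.28 ± 0.27 (adjusted p = 0.0178), and HMGB1 was not analysed here. With arrays scaled to their medians, 5 genes of this list were called in NaB/Ctl and 4 in DoxyNaB/Doxy.

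All 8 genes described as regulated by HMGA proteins were tested, and 2 rose and 3 fell in both butyrate comparisons. SNAI2 and SNAI1, transcription factors of the epithelial to mesenchymal transition, rose by 2.56 ± 0.78 and 2.35 ± 0.23 (SD, n = 6) in DoxyNaB/Doxy (limma adjusted p = 1.8e-08 and 4.38e-14). SNAI2 was well above background on 2 of 6 Ctl, 6 of 6 NaB, 3 of 6 Doxy and 5 of 6 DoxyNaB arrays, so it entered the test through NaB, where it is high, and its difference rests partly on signals near background. Its NaB/Ctl difference was 3.92 ± 0.48 (SD, n = 6). In DoxyNaB/NaB it differed by -1.36 (limma adjusted p = 0.0016), lower in 6 of 6 experiments. Its interaction, 1.35, did not pass (limma adjusted p = 0.0409). With probes well above background on all 24 arrays, 4 genes of this list were called in place of 5. CCNA2, a cyclin of S phase, fell by 2.76 ± 0.21 (adjusted p = 5.41e-14), and CDKN2A, which encodes an inhibitor of cyclin-dependent kinases, fell by 2.19 ± 0.31 (adjusted p = 3.26e-13).

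**Figure D5:**
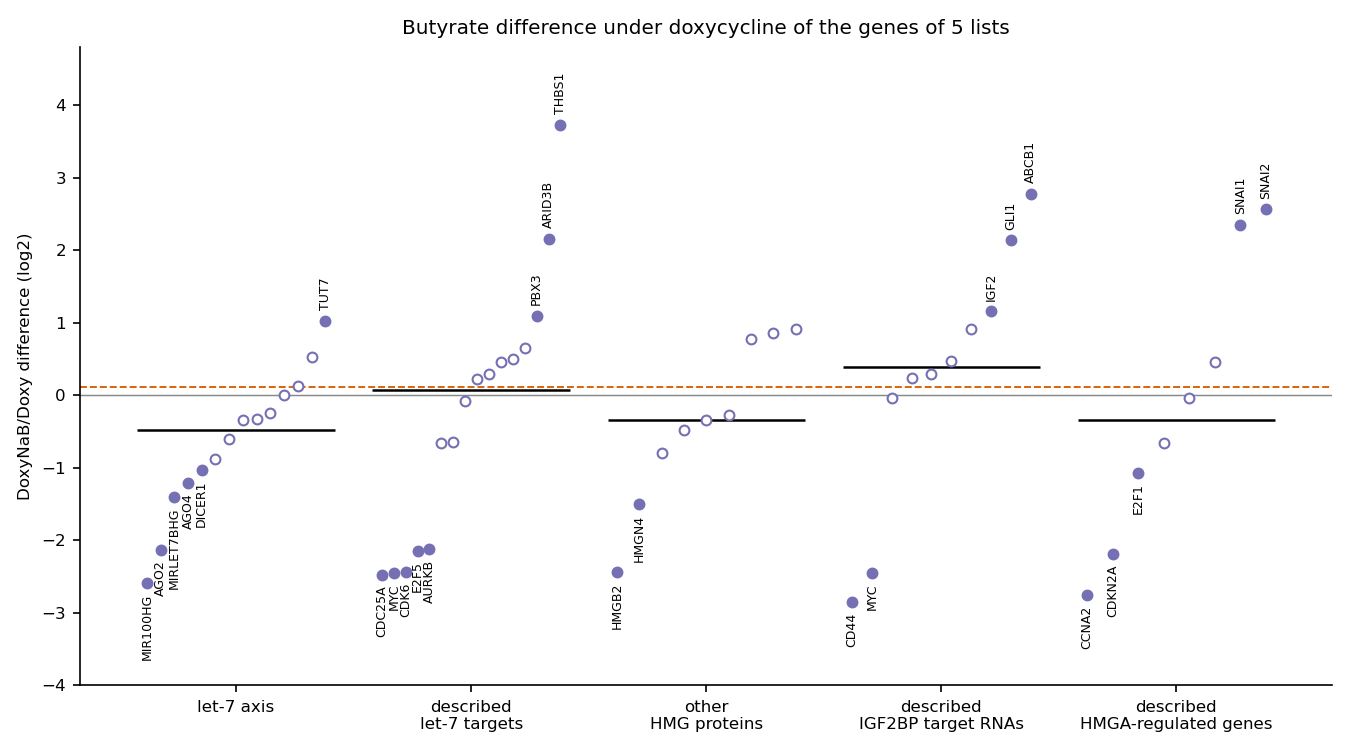
DoxyNaB/Doxy difference (log2, y axis) of the tested genes of 5 lists, members left out. Filled and named points passed a fold over 2 and an adjusted p under 0.01, open points did not, black bars are list medians and the dashed line is the median of all genes, 0.11; MIR100HG, CDC25A, HMGB2, CD44 and CCNA2 are the lowest of their lists.

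The genes whose pattern was most like HMGA2 were found by Pearson's r over the 24 arrays, with each level centered on the mean of its experiment. IGF2BP2 was the second of 14651 genes, at r = 0.996, after MLPH, which encodes a protein of melanosome transport, at r = 0.997. PPARG, a nuclear receptor, MTHFS, an enzyme of folate metabolism, and ITPRIPL2 followed. IGF2BP3 stood at position 112 (r = 0.989) and HMGA1 at position 4156 (r = 0.728). The arrays form 2 sets here, without and with butyrate, and these values include the difference between the sets. Within the 12 arrays of a set the HMGA2 and IGF2BP2 levels, not centered, had r = -0.47 without butyrate and r = 0.36 with it. In the same order, HMGA2 and HMGA1 had r = -0.63 and r = -0.74, and HMGA2 and IGF2BP3 had r = -0.35 and r = -0.30. IGF2BP2 and IGF2BP3 had r = 0.86 and r = 0.47. These are descriptions over arrays that share experiments and scans.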

How the data were processed

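RNA of 24 cultures was hybridised in 1 color to Agilent whole genome arrays. Each deposited file lists intensity values for 44495 spots, from Agilent Feature Extraction 9.5.3.1 per the file headers. The processed signal used here is an intensity that this software gives for 1 array at a time. The authors then used GeneSpring and a paired test, and their scaled values were not used here.

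Controls and outlier spots (359 to 795 per array) were left out, and a probe printed in 10 spots was given their mean. Between 0 and 3 spots per array were saturated, and the 75th percentile lay between 380.2 and 1323 in signal units. The number of arrays limits the precision. Probes were renamed with a RefSeq table used for names only; coordinates are those of the files (NCBI36).

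A single fit with limma 3.58.1 (R 4.3.3, lmFit and eBayes) covered the 24 arrays, with a term for each of 4 treatments and a block for the experiment, and p-values were adjusted by Benjamini-Hochberg over all 18983 probes. Calls needed an adjusted p under 0.01, and in the butyrate comparisons a fold over 2. Arrays of an experiment were taken as paired because the methods do so: levels centered on their treatment correlated with r from 0.219 to 0.853 in all of 36 pairs but 1, which was at -0.224 between NaB and DoxyNaB of experiment 3. The fit was tested on simulated data. Plots were made with Python 3.11.15 and matplotlib 3.10.9.

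The members and the gene lists were chosen with earlier results of these data known. Named genes are all member probes, in each list the 2 largest rises and the 2 largest falls called in DoxyNaB/Doxy, with LIN28A, DICER1, HMGB1, HMGB2, HMGB3, IGF2, H19 and MYC whatever their values, and the 5 genes most correlated with HMGA2. AGO4 is named for its signal near background with butyrate. Alternatives were normexp background correction (offset 50), quantile normalization, scaling to the median (floor 5), other filters, blocks and array sets, the methods' t-test, the mean over probes, and leaving out each experiment.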

Additional observations from a re-analysis of the deposited data

Results flagged for a closer look

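In 7 of 36 groups of 6 arrays, 1 array stood apart from the others by Dixon's criterion, which chance meets in about 1 in 20 groups. Of these, 6 were arrays of experiment 1. Its Ctl and Doxy arrays lay on 1 slide and its NaB and DoxyNaB arrays on another, in different scans. Every other experiment lay on 1 slide of its own. HMGA1 was at 5.48 on the Ctl array of experiment 1 (4.53 to 4.77 on the others), at 5.18 on its NaB array (4.12 to 4.46) and at 5.56 on its Doxy array (4.66 to 4.89). The 3′ end probe of IGF2BP2 was at 2.62 on the Ctl array of experiment 1 (1.97 to 2.13 on the others). The junction probe of IGF2BP2 was low there instead, at -2.88 on the Ctl array (-1.95 to -1.55) and at -2.91 on the Doxy array (-1.79 to -1.60). The HMGA1 difference within experiment 1 was -0.30 in NaB/Ctl and -0.36 in DoxyNaB/Doxy.

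The short-variant probe of HMGA2 was at -3.43 on the DoxyNaB array of experiment 2, against -6.57 to -5.48 on the others, and was not well above background there. This array also had the highest negative controls of the series, with a mean net signal of 311.0; the part of that background in this value was not tested. Without it and the NaB array of experiment 3, the DoxyNaB/Doxy difference of the probe was -3.89.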

How the results depend on the processing

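Between 19 and 20 other settings were tried for each comparison, and with HMGA2 left out 2 of 3 members were called in DoxyNaB/Doxy under every one of them, while 0 members were called at an adjusted p under 0.01 in Doxy/Ctl, DoxyNaB/NaB and the interaction. Without the replicate block, which ignores that arrays of an experiment are paired, these counts were again 2 and 0. The genes called over all lists were then 25 in DoxyNaB/Doxy and 23 in NaB/Ctl, against 25 and 24 with the block. Of 18 member differences in Doxy/Ctl, DoxyNaB/NaB or the interaction, 9 changed sign under some setting. With normexp background correction the interaction became 0.15 for HMGA1 and -0.42 for the IGF2BP2 junction probe. DoxyNaB/NaB became 0.10, 0.47 and 0.039 for the 5′ end, short-variant and long-variant probes of HMGA2 and 0.35 for the junction probe, whose Doxy/Ctl difference became -0.072. With quantile normalization the HMGA1 interaction became 0.028, and the junction probe gave -0.022 in Doxy/Ctl, 0.079 in DoxyNaB/NaB and -0.10 in the interaction. Scaling to the median gave it -0.037 in Doxy/Ctl. Leaving out each experiment moved the HMGA1 interaction between -0.15 and 0.037, the junction probe's interaction between -0.028 and 0.36, and its DoxyNaB/NaB difference between -0.34 and 0.075. Among fits chosen after seeing the data, experiments 2 to 4 only gave 0.00030 for the HMGA1 interaction and 0.076 for NaB/Ctl on the HMGA2 5′ end probe, and experiments 5 and 6 only gave -0.081 for its Doxy/Ctl difference, and 0.15 and 0.10 in DoxyNaB/NaB for the short-variant probe and IGF2BP3. Among the lists, experiments 2 to 4 only gave 3 let-7 pathway genes in DoxyNaB/Doxy (6 in the report's fit), experiments 5 and 6 only gave 4 other HMG genes in NaB/Ctl (2), and probes above background on all 24 arrays gave 2 IGF2BP-bound mRNAs there (4). Normexp gave 17 and 18 called genes over all lists in DoxyNaB/Doxy and NaB/Ctl, and scaling to the median 29 and 32. These list counts have no share over all genes beside them, so nothing is read from them. The causes of the changes between settings were not tested. Signal over background limits what can be said of LIN28B, IGF2BP1, the short-variant probe and the junction probe.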

Other observations

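LIN28B and IGF2BP1 can be fitted when no filter on dim probes is used, and their values are then as follows. IGF2BP1 differed by 0.84 in DoxyNaB/Doxy, higher in 5 of 6 experiments (limma adjusted p = 0.0473), and by 1.27 ± 0.74 (SD, n = 6) in NaB/Ctl, higher in 6 of 6 and given with no test. Its level was -2.84 on the DoxyNaB array of experiment 2 and -3.58 on the NaB array of experiment 3, the arrays with the highest negative controls, and the part of background in these differences was not tested. LIN28B differed by 0.29 in DoxyNaB/Doxy (limma adjusted p = 0.577), higher in 4 of 6 experiments, and by -0.41 ± 0.92 in NaB/Ctl.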
